A study of Rattus norvegicus with 132 samples.

Results

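The 33 genes described here encode enzymes, carriers and regulators of fatty acid oxidation, with enzymes of ketone body handling, and were followed in rat colon and jejunum epithelium. The list was drawn up by symbol with earlier results of these data known, and 33 of 33 have an entry among the 21837 gene symbols of the deposited count tables. Symbols without an entry were dropped from the list beforehand, so this number does not measure how much of the pathway is covered. All 33 passed the filter on low counts in each fit, so none was left out. The list names ketogenesis, but Bdh1 and Acat1 are its only enzymes of ketone body metabolism, so the values speak mainly of fatty acid oxidation.

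The rats were Sprague Dawley rats, whose age and sex the labels do not give, and the design had 22 groups of 6 libraries, 132 in all. Irradiated rats received 5 abdominal fractions of 4 Gy between day 0 and day 4, and colon or jejunum epithelium was taken at day 4 or day 7. In each tissue and on each day, irradiated rats had received compound Kushen powder by mouth, its vehicle water by mouth, compound Kushen injection into the peritoneum, its injected vehicle (0.25% Tween-80 with 25 mM HEPES), or nothing. Rats that were neither irradiated nor treated formed 1 group per tissue, which was compared with both days. The powder is called a pill in some labels. The labels call the 6 libraries biological replicates but name no rats, so the p-values measure the spread between libraries.

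Fatty acids are activated to acyl-CoA, carried into mitochondria as carnitine esters, and shortened in repeated rounds of dehydrogenation, hydration, a second dehydrogenation and thiolysis. Peroxisomes run a parallel pathway for very long chains, which yields hydrogen peroxide that catalase removes. The nuclear receptor PPARA, activated by fatty acids, switches on many of these genes together with the coactivator encoded by Ppargc1a. In the colon the epithelium takes much of its energy from butyrate made by bacteria, whereas enterocytes of the jejunum absorb dietary fat.

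RefSeq promoter windows of 300 bases (250 before and 50 after the annotated start, build GRCr8) were found by symbol for 29 of the 33 genes. The deposited counts were aligned to another build and carry no positions, so the windows identify the genes and were not aligned to the data. Hadha and Hadhb, the subunits of the mitochondrial trifunctional protein, stand head to head with starts 301 bases apart. The Hadha window is shown with the 200 bases that it shares with the Hadhb window in capitals (chr6:31907551-31907850, plus strand):
Hadha: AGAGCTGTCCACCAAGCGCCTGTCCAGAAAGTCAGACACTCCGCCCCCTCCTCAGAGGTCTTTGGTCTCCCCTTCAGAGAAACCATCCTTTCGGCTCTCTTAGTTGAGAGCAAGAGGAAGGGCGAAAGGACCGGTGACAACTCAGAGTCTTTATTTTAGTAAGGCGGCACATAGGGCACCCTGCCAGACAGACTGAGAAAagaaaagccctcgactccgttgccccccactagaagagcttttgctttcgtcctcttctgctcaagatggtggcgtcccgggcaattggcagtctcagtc
The direct repeat of AGGTCA with 1 base of any kind between the copies, known to bind PPAR with its partner RXR, was searched on both strands with at most 1 mismatch in its 12 stated letters. It was present in 78 of 19005 promoters of protein-coding genes (0.41%) and in 1 of the 29, Acadvl, which encodes the very long chain acyl-CoA dehydrogenase. Its window is shown with the match in capitals, from position -17 to -5 relative to the start (chr10:55236656-55236955, minus strand):
Acadvl: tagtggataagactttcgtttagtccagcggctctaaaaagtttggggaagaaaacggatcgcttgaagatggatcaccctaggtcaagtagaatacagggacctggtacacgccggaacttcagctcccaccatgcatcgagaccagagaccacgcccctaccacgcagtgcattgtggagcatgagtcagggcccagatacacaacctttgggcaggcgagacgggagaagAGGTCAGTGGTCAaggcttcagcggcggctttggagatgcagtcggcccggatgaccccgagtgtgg
TCAAGGTCA, the motif of estrogen-related receptors, was searched exactly on both strands. It was present in 67 of 19005 promoters (0.353%) and in 0 of the 29. The Ppara window, which held neither motif, is shown because the change of Ppara after irradiation differed most between the tissues (chr7:118712357-118712656, plus strand):
Ppara: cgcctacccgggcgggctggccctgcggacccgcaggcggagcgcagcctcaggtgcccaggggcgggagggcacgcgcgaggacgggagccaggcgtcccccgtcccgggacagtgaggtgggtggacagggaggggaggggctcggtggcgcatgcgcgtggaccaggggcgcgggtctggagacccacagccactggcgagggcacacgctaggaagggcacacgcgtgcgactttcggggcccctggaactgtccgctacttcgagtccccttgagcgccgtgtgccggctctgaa

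Library totals ran from 17196039 to 19800746 counts, and levels are given as CPM, each count as a share of its library total scaled with TMM factors over all libraries. CPM is not corrected for gene length, so levels are compared between samples and not between genes. The markers of the epithelium summed to between 10368 and 30364 CPM over the 36 libraries of irradiated untreated and non-irradiated rats. Colonocyte markers summed to at most 1896 CPM in non-irradiated jejunum and at least 19513 CPM in non-irradiated colon. Jejunal enterocyte markers summed to at least 92326 CPM in non-irradiated jejunum and at most 563 CPM in non-irradiated colon, so the labelled tissues and their markers matched. Markers of the exocrine pancreas summed to at most 0.485 CPM in any library of these groups. The non-irradiated, untreated, powder and water groups each hold 3 libraries of series 1 (replicates 1 to 3) and 3 of series 2 (replicates 4 to 6), as the library names give it. The injected groups are all of series 3 and were compared only with each other.

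In the irradiated colon most genes of the pathway were lower than without irradiation. At day 4, 24 of the 33 genes fell and 1 rose, where 22.3% of all genes tested fell and 24.6% rose. At day 7, 27 fell and 1 rose, where 30.8% of all genes fell and 32.9% rose. The median log2 fold change of the 33 was -0.80 at day 4 and -1.16 at day 7, while the median of all genes was 0.02 on both days. A gene is said to have risen or fallen where edgeR's quasi-likelihood test gave a Benjamini-Hochberg adjusted p under 0.05 over all genes. Libraries of the irradiated and non-irradiated groups did not overlap for 17 lower genes and 1 higher gene at day 4, where 13.3% of all genes lay apart in each direction. At day 7 this held for 24 lower genes and 1 higher gene, where 20.9% lay apart lower and 20.8% higher.

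**Figure D1:**
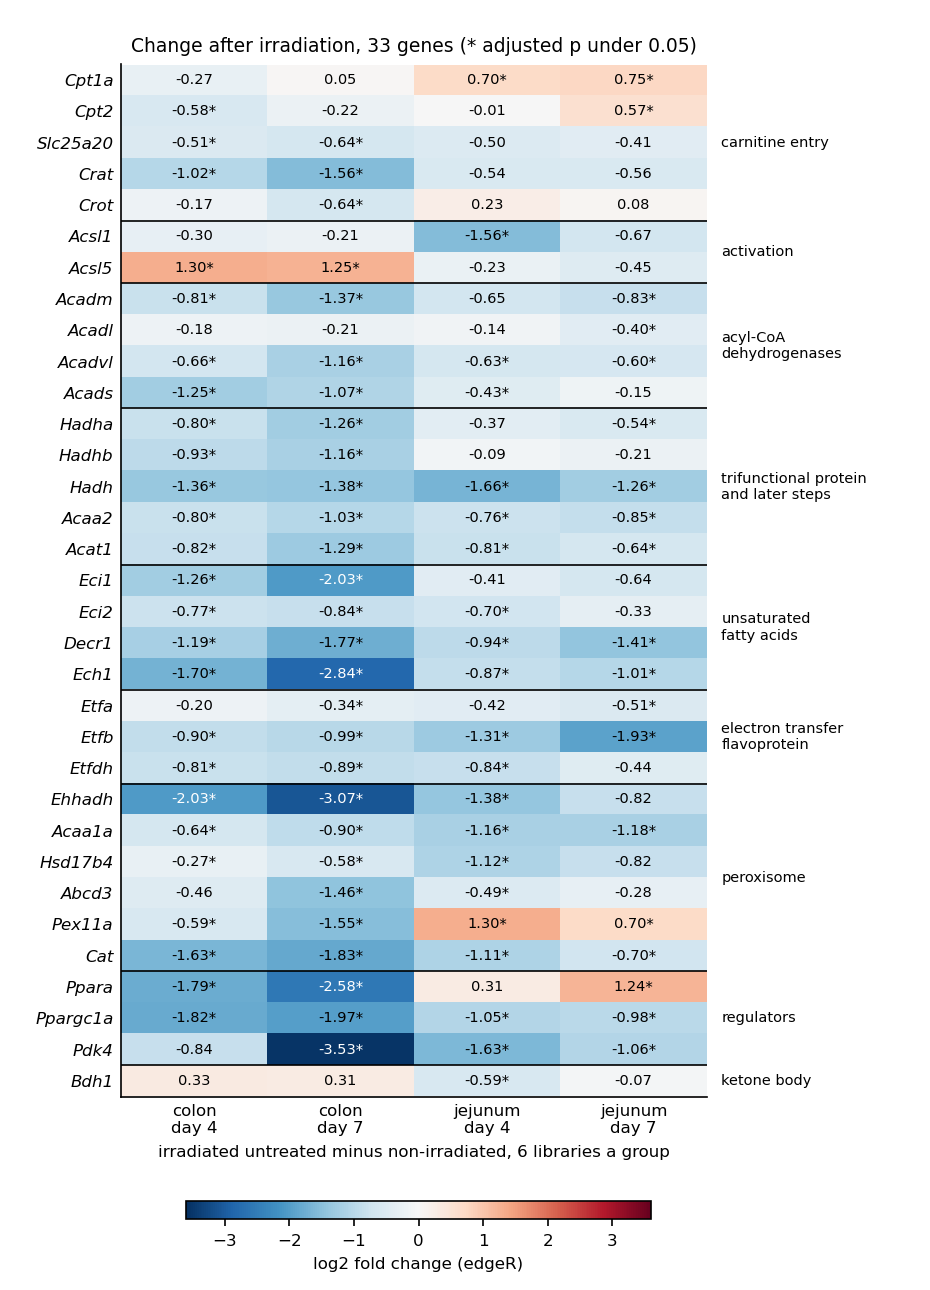
Log2 fold changes of the 33 genes, 1 row a gene ordered by role, in 4 comparisons of irradiated untreated with non-irradiated libraries (6 a group); colour and printed number give the fold change and a star marks an adjusted p under 0.05. The colon columns are mostly blue, with Acsl5 at 1.30 and 1.25 as the only starred rise, and Ppara and Pex11a have opposite signs in colon and jejunum at day 7.

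Among the regulators, Ppara was one of the 4 largest falls on both days, Ppargc1a at day 4 and Pdk4 at day 7. Ppara had 0.864, 3.71 and 6.98 CPM in irradiated colon at day 4 (lowest, median and highest library, as in all such triplets), against 9.20, 12.4 and 14.1 CPM in non-irradiated colon. At day 7 it had 0.785, 2.18 and 2.68 CPM in irradiated colon. No irradiated library reached the lowest non-irradiated library on either day. The log2 fold change of Ppara was -1.79 ± 0.37 (SE) at day 4 (adjusted p = 0.00021) and -2.58 ± 0.38 at day 7 (adjusted p = 5.22e-07). Ppargc1a had 0.545, 12.1 and 20.6 CPM in irradiated colon at day 4 and 1.46, 12.8 and 17.1 CPM at day 7, against 30.6, 39.9 and 53.8 CPM in non-irradiated colon. It fell by 1.82 ± 0.68 on the log2 scale at day 4 (adjusted p = 0.0276) and by 1.97 ± 0.68 at day 7 (adjusted p = 0.0113), with no overlap of libraries on either day. The day 4 call of Ppargc1a was lost without replicate 4, 5 or 6 of the irradiated group, with log2 changes of -1.71, -1.74 and -1.53. It was also lost with the share of mitochondrial counts as a covariate (-1.15) and within library series 1 (-0.88), but not within series 2 (-3.08). The day 7 call was lost with that covariate (-0.19) and within series 2 (-1.71), but not within series 1 (-2.46). Pdk4 encodes the kinase that blocks pyruvate dehydrogenase and so spares glucose when fatty acids are burned. It had 11.0, 41.3 and 105 CPM in irradiated colon at day 4, which overlapped the 51.7, 94.8 and 144 CPM of non-irradiated colon, and its log2 change of -0.84 ± 0.49 did not pass the test (adjusted p = 0.158). Without replicate 4 of the irradiated group the change was -1.36 and passed (adjusted p = 0.0291). At day 7 Pdk4 had 2.68, 7.37 and 21.5 CPM and was 11.6-fold lower than in non-irradiated colon (log2 -3.53 ± 0.55, adjusted p = 1.23e-06). The 3 day 7 libraries of series 2 were all at 2.68 to 3.04 CPM and the 3 of series 1 at 11.7 to 21.5 CPM. Pdk4 changed by -2.11 within series 1 and by -5.33 within series 2, both past the test.

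Peroxisomal genes, counted without Crot, fell in 5 of 6 cases at day 4 and in 6 of 6 at day 7. Of all genes 22.3% and 30.8% fell on these days. Ehhadh, the peroxisomal bifunctional enzyme and a well known PPARA target, had 10.7, 47.4 and 61.1 CPM in irradiated colon at day 4 and 9.42, 20.2 and 25.7 CPM at day 7, against 122, 144 and 248 CPM in non-irradiated colon. Every irradiated library lay below every non-irradiated library. It was 4.09-fold lower at day 4 (log2 -2.03 ± 0.40, adjusted p = 0.000128) and 8.41-fold lower at day 7 (log2 -3.07 ± 0.42, adjusted p = 1.08e-07). Catalase (Cat) fell by 1.63 ± 0.23 and 1.83 ± 0.23 on the log2 scale at day 4 and day 7. Pex11a, which drives the division of peroxisomes, had 24.8, 26.1 and 36.9 CPM at day 4 and 12.1, 13.9 and 18.6 CPM at day 7, against 39.3, 43.1 and 46.9 CPM in non-irradiated colon. Its log2 changes were -0.59 ± 0.13 (adjusted p = 0.000667) and -1.55 ± 0.14 (adjusted p = 4.45e-11). Abcd3, which carries fatty acids across the peroxisomal membrane, had 167, 553 and 844 CPM at day 4, against 609, 707 and 809 CPM without irradiation, and did not pass the test (log2 -0.46 ± 0.26, adjusted p = 0.142). At day 7 it had 216, 251 and 384 CPM and had fallen by 1.46 ± 0.26. The peroxisomal thiolase Acaa1a fell by 0.64 ± 0.11 and 0.90 ± 0.11, and Hsd17b4, the other bifunctional enzyme, by 0.27 ± 0.11 and 0.58 ± 0.11.

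The enzymes that prepare unsaturated fatty acids fell in 4 of 4 cases on both days, where 22.3% and 30.8% of all genes fell. Ech1, a dienoyl-CoA isomerase, had 32.2, 163 and 241 CPM in irradiated colon at day 4 and 55.2, 61.1 and 90.5 CPM at day 7, against 400, 452 and 486 CPM in non-irradiated colon. The groups did not overlap on either day, and Ech1 was 3.25-fold lower at day 4 (log2 -1.70 ± 0.30, adjusted p = 2.53e-05) and 7.16-fold lower at day 7 (log2 -2.84 ± 0.31, adjusted p = 1.46e-09). The isomerase Eci1 fell by 1.26 and 2.03, the dienoyl-CoA reductase Decr1 by 1.19 and 1.77, and the isomerase Eci2 by 0.77 and 0.84 on the log2 scale at day 4 and day 7.

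Enzymes of the mitochondrial spiral fell as well. The trifunctional protein and later steps fell in 5 of 5 cases on both days, where 22.3% and 30.8% of all genes fell. Hadha and Hadhb, whose promoter windows overlap as described above, changed by -0.80 ± 0.21 and -0.93 ± 0.17 at day 4 and by -1.26 ± 0.21 and -1.16 ± 0.17 at day 7. Hadh, the dehydrogenase for shorter chains, fell by 1.36 and 1.38, the thiolase Acaa2 by 0.80 and 1.03, and the acetoacetyl-CoA thiolase Acat1 by 0.82 and 1.29. Among the acyl-CoA dehydrogenases 3 of 4 fell on both days. Acads, which acts on short chains and so on butyrate, had 71.1, 128 and 174 CPM at day 4 and 70.9, 161 and 172 CPM at day 7, against 282, 294 and 328 CPM in non-irradiated colon. Its log2 changes were -1.25 ± 0.24 and -1.07 ± 0.24, with no overlap of libraries on either day. Acadm, for medium chains, fell by 0.81 and 1.37, and Acadvl by 0.66 and 1.16. Acadl, for long chains, did not pass the test, with log2 values of -0.18 ± 0.19 and -0.21 ± 0.19. The electron transfer flavoprotein passes electrons from these dehydrogenases to the respiratory chain. Its subunit gene Etfb, at low levels, fell by 0.90 and 0.99, and Etfdh, the oxidoreductase that takes over its electrons, by 0.81 and 0.89. Etfa, the other subunit, fell at day 7 (log2 -0.34 ± 0.14) and had a value of -0.20 ± 0.14 at day 4.

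Carnitine entry and activation did not move as a block. Cpt1a, the rate-limiting carnitine palmitoyltransferase, had 261, 331 and 454 CPM in irradiated colon at day 4 and 369, 434 and 533 CPM at day 7, against 369, 417 and 463 CPM in non-irradiated colon. The libraries overlapped on both days, and the log2 values of -0.27 (95% interval -0.57 to 0.02) and 0.05 (-0.24 to 0.34) did not pass the test (adjusted p = 0.133 and 0.785). Without replicate 4 of the irradiated group the day 4 value was -0.37 and passed (adjusted p = 0.0462). Crat, the carnitine acetyltransferase, fell by 1.02 and 1.56, and the carnitine-acylcarnitine carrier Slc25a20 by 0.51 and 0.64. Cpt2, which restores acyl-CoA inside mitochondria, fell at day 4 (log2 -0.58 ± 0.16) and had a value of -0.22 ± 0.16 at day 7. The peroxisomal carnitine octanoyltransferase Crot fell at day 7 (log2 -0.64 ± 0.15) and had a value of -0.17 ± 0.15 at day 4. Acsl5, a long-chain acyl-CoA synthetase, was the only gene of the 33 that rose in irradiated colon. It had 140, 176 and 277 CPM at day 4 and 158, 169 and 219 CPM at day 7, against 69.2, 74.6 and 83.7 CPM in non-irradiated colon. No libraries overlapped, and the log2 changes were 1.30 ± 0.14 (adjusted p = 1.42e-08) and 1.25 ± 0.14 (adjusted p = 5.22e-09). The related synthetase Acsl1 had values of -0.30 ± 0.16 and -0.21 ± 0.16, which did not pass. Bdh1, which converts acetoacetate and beta-hydroxybutyrate into each other, had 148, 167 and 196 CPM at day 4 and 93.7, 188 and 209 CPM at day 7, against 125, 136 and 153 CPM without irradiation. Its log2 values of 0.33 ± 0.16 and 0.31 ± 0.16 did not pass (adjusted p = 0.0899 and 0.0927), and without replicate 2 of the day 7 group the day 7 value was 0.44 and passed (adjusted p = 0.0105).

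**Figure D2:**
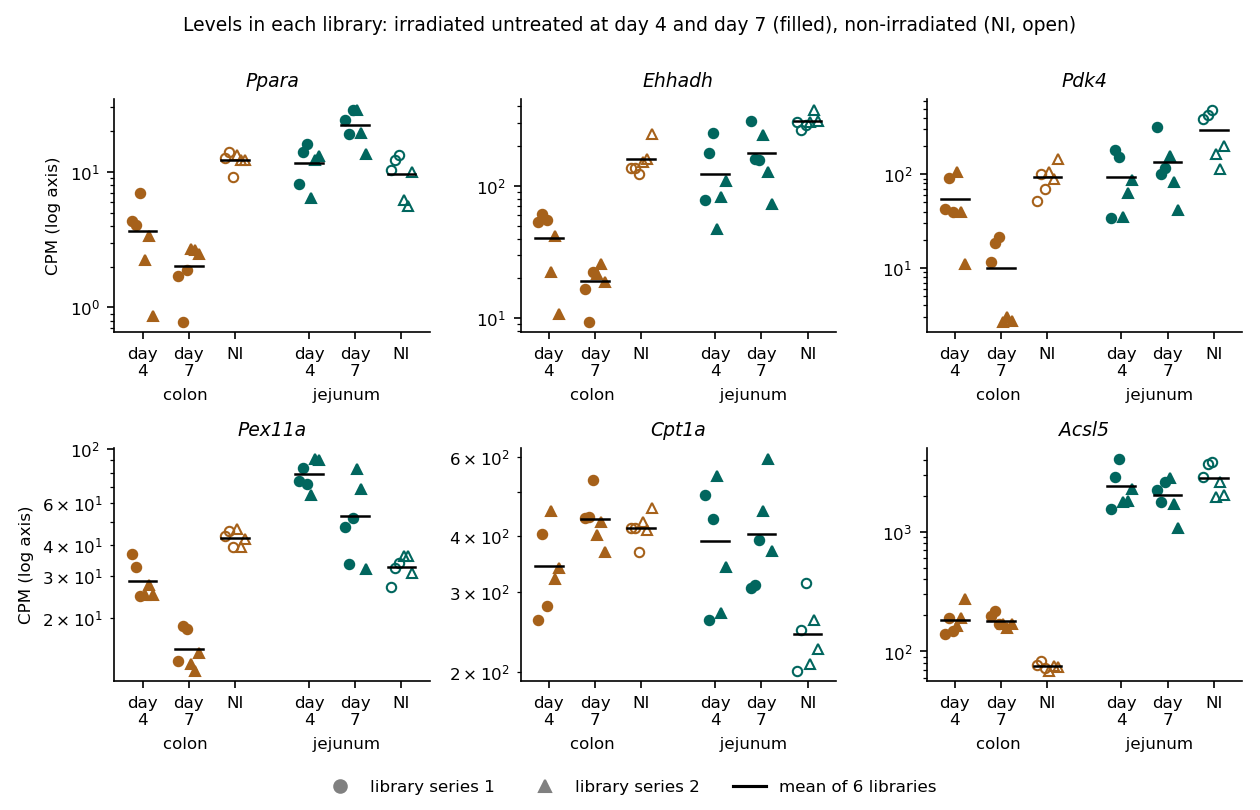
CPM (log axis) of 6 genes in each library of irradiated untreated rats at day 4 and day 7 (filled) and of non-irradiated rats (NI, open), for colon on the left and jejunum on the right of each panel; circles are series 1, triangles series 2, and the bar is the mean of 6. Ppara and Pex11a lie below the non-irradiated libraries in irradiated colon, while in jejunum Ppara is higher at day 7 and Pex11a at day 4.

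The library series differed in how many genes passed. At day 4 in colon, 8 of the 33 fell and 1 rose within series 1 (6.73% and 9.15% of all genes), and 25 fell and 1 rose within series 2 (17.1% and 22.3%). At day 7, 25 fell and 1 rose within series 1 (25.0% and 27.5%), and 23 fell and 2 rose within series 2 (22.5% and 22.8%). The share of mitochondrial counts was 7.80% to 10.8% in irradiated colon at day 4 and 3.24% to 4.82% at day 7, against 10.4% to 14.2% in non-irradiated colon. With this share as a covariate 13 fell and 1 rose at day 4 (9.25% and 12.1% of all genes), and 4 fell and 0 rose at day 7 (1.34% and 0.706%). At day 7 the share did not overlap between the groups, so irradiation and the share cannot be told apart there. For the marker counts that follow, 22.3% of all genes fell and 24.6% rose at day 4, and 30.8% and 32.9% at day 7. The 5 colonocyte markers (2 fell, 1 rose on each day) summed to 1082 to 10731 CPM at day 4 and 766 to 6137 CPM at day 7, against 19513 to 24085 CPM without irradiation. At day 4 their sums lay at 9908 to 10731 CPM in series 1 and at 1082 to 5343 CPM in series 2. The 4 proliferation markers, of which 2 rose at day 4 and 4 at day 7, summed to 122 to 184 and 310 to 505 CPM, against 64.3 to 164 CPM. Of the 6 fibroblast markers 6 rose on both days, and they summed to 24.8 to 87.2 CPM at day 4 and 11.1 to 215 CPM at day 7, against 4.24 to 10.9 CPM. No colonocyte, proliferation or fibroblast marker was at 0 in these groups. In bulk samples fewer cells of a type and less RNA per cell cannot be told apart, and the part of these markers in the falls was not tested. Replicate 6 of the irradiated day 4 group had the fewest colonocyte marker counts (1082 CPM) and the lowest Ppara, Ehhadh, Ech1 and Ppargc1a of its group. Without it, or without any other single library, 22 to 25 of the 33 passed at day 4 and 27 to 28 at day 7.

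Wider lists of the same pathways were counted in the same comparison, where 22.3% of all genes fell and 24.6% rose at day 4, and 30.8% fell and 32.9% rose at day 7. The list of other mitochondrial fatty acid oxidation genes also holds genes of neighbouring steps, among them Slc22a5 and Acad8. Of its 23 genes tested, 9 fell and 2 rose at day 4 and 15 fell and 3 rose at day 7. Slc22a5, which carries carnitine into cells, averaged 28.8 ± 12.9 CPM in irradiated colon at day 7 and 211 ± 29.8 CPM in non-irradiated colon (SD, n = 6 each), a log2 change of -2.99. Mlycd, the malonyl-CoA decarboxylase that relieves the block on carnitine entry, averaged 57.6 ± 9.03 CPM at day 4 and 93.8 ± 6.77 CPM without irradiation (log2 -0.70). Acad8, a dehydrogenase of valine breakdown, was higher at 14.8 ± 3.92 CPM, against 4.78 ± 0.779 CPM (log2 1.62). Of 28 tested genes of peroxisomal oxidation and peroxisome biogenesis, 18 fell at day 4 and 19 at day 7, and 0 rose on either day. Of 7 genes of ketone body and butyrate handling, 2 fell and 1 rose at day 4 and 2 fell and 2 rose at day 7. Oxct1, the transferase that lets cells use acetoacetate, rose by 1.45 and 1.37 on the log2 scale. Of 21 PPAR receptors, partners and known targets, 8 fell and 1 rose on both days, among them Fabp1, a fatty acid binding protein, at 17.4 ± 11.1 CPM in irradiated colon at day 7 and 1913 ± 487 CPM in non-irradiated colon (log2 -7.15).

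In the irradiated jejunum fewer genes fell than in colon, and the few that rose were a smaller share than among all genes. At day 4, 19 of the 33 fell and 2 rose, where 18.9% of all genes fell and 25.0% rose. At day 7, 15 fell and 4 rose, where 27.4% fell and 31.4% rose. The median log2 fold change of the 33 was -0.63 at day 4 and -0.56 at day 7, and of all genes 0.05 and 0.02. Libraries lay apart for 6 lower genes and 1 higher gene at day 4 (4.36% and 5.54% of all genes) and for 8 lower genes and 1 higher gene at day 7 (11.6% and 15.2%).

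Ppara, which fell in colon, was higher in irradiated jejunum at day 7. It had 13.6, 21.7 and 28.7 CPM there, against 5.58, 10.1 and 13.4 CPM in non-irradiated jejunum, with no overlap (log2 1.24 ± 0.28, adjusted p = 0.000383). At day 4 it had 6.42, 12.7 and 16.0 CPM and did not pass the test (log2 0.31 ± 0.28, adjusted p = 0.388). Ppargc1a fell at both times, with 5.76, 11.5 and 16.3 CPM at day 4 and 4.99, 12.7 and 19.3 CPM at day 7, against 11.3, 25.6 and 33.1 CPM without irradiation. Its log2 changes were -1.05 ± 0.40 (adjusted p = 0.0338) and -0.98 ± 0.40 (adjusted p = 0.0354), and the libraries overlapped. The call of Ppargc1a was lost at day 4 without replicate 1, 2 or 3 of the non-irradiated group or replicate 1 or 4 of the irradiated group. At day 7 it was lost without replicate 1, 2 or 3 of the non-irradiated group or replicate 3, 5 or 6 of the irradiated group. Pdk4 had 33.8, 74.6 and 182 CPM at day 4 and 41.9, 108 and 319 CPM at day 7, against 114, 295 and 487 CPM in non-irradiated jejunum. The log2 changes of Pdk4 were -1.63 ± 0.44 (adjusted p = 0.0031) and -1.06 ± 0.43 (adjusted p = 0.0331). The day 7 call of Pdk4 was lost without replicate 1, 2 or 3 of the non-irradiated group or replicate 2, 3, 5 or 6 of the irradiated group. In non-irradiated jejunum the libraries of series 1 lay above those of series 2 for both genes, at 32.3 to 33.1 against 11.3 to 18.9 CPM for Ppargc1a and at 391 to 487 against 114 to 200 CPM for Pdk4.

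Carnitine entry held rises on both days. Cpt1a had 260, 389 and 543 CPM in irradiated jejunum at day 4 and 306, 381 and 594 CPM at day 7, against 201, 236 and 314 CPM in non-irradiated jejunum. The groups overlapped at their edges, and the log2 changes were 0.70 ± 0.18 (adjusted p = 0.00193) and 0.75 ± 0.18 (adjusted p = 0.000617). Cpt2 had 88.0, 133 and 188 CPM at day 7, against 81.0, 86.3 and 112 CPM, and rose by 0.57 ± 0.19 on the log2 scale (adjusted p = 0.0113). Without replicate 4 of the irradiated group the change of Cpt2 was 0.44 and did not pass (adjusted p = 0.0513). Slc25a20, Crat and Crot did not pass on either day, with values between -0.56 and 0.23. Acsl1 had 18.2, 32.9 and 58.1 CPM at day 4, against 83.5, 99.4 and 112 CPM without irradiation, apart from them (log2 -1.56 ± 0.31, adjusted p = 0.00014). At day 7 Acsl1 had 36.7, 66.8 and 87.0 CPM and did not pass (log2 -0.67 ± 0.30, adjusted p = 0.0529). Acsl5 had values of -0.23 ± 0.26 and -0.45 ± 0.27, which did not pass.

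Among the trifunctional protein and later steps, 3 of 5 genes fell at day 4 and 4 of 5 at day 7. Of all genes 18.9% and 27.4% fell on these days. Hadh had the largest falls of the 5. It had 177, 273 and 727 CPM at day 4 and 242, 411 and 790 CPM at day 7, against 880, 1042 and 1267 CPM in non-irradiated jejunum, with no overlap. The log2 changes of Hadh were -1.66 ± 0.32 (adjusted p = 0.000128) and -1.26 ± 0.32 (adjusted p = 0.00115). Acaa2 fell by 0.76 and 0.85, and Acat1 by 0.81 and 0.64. Hadha fell at day 7 (log2 -0.54 ± 0.19) and had a value of -0.37 ± 0.19 at day 4, and Hadhb did not pass, at -0.09 ± 0.18 and -0.21 ± 0.18. Of the acyl-CoA dehydrogenases Acadvl fell by 0.63 and 0.60 on the 2 days, Acads by 0.43 at day 4, and Acadm and Acadl by 0.83 and 0.40 at day 7. Decr1 had 60.0, 100 and 195 CPM at day 4 and 44.9, 73.0 and 121 CPM at day 7, against 166, 199 and 288 CPM in non-irradiated jejunum. Decr1 fell by 0.94 ± 0.26 and by 1.41 ± 0.26 (adjusted p = 2.56e-05 at day 7), and Ech1 by 0.87 and 1.01. Etfb had 5.80, 8.35 and 12.7 CPM at day 4 and 2.41, 6.06 and 8.47 CPM at day 7, against 9.31, 18.4 and 37.1 CPM. Its non-irradiated libraries lay at 9.31 to 14.2 CPM in series 1 and 22.5 to 37.1 CPM in series 2, and its day 7 change of -1.93 ± 0.33 was -0.72 within series 1, which did not pass, and -2.75 within series 2.

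Among the peroxisomal genes, again without Crot, 5 of 6 fell and Pex11a rose at day 4, while 2 of 6 fell and Pex11a rose at day 7. Of all genes 18.9% fell and 25.0% rose at day 4, and 27.4% fell and 31.4% rose at day 7. The peroxisomal falls at day 7 were thus near the share of all genes. Pex11a had 64.3, 78.9 and 91.3 CPM in irradiated jejunum at day 4, against 26.8, 33.1 and 36.2 CPM in non-irradiated jejunum, with no overlap (log2 1.30 ± 0.18, adjusted p = 7.31e-07). At day 7 it had 31.9, 49.7 and 82.7 CPM (log2 0.70 ± 0.17, adjusted p = 0.000954). Ehhadh had 47.4, 94.9 and 249 CPM at day 4, below the 265, 305 and 375 CPM of non-irradiated jejunum (log2 -1.38 ± 0.40, adjusted p = 0.0056). At day 7 it had 72.6, 159 and 306 CPM and did not pass (log2 -0.82 ± 0.39, adjusted p = 0.0701). Acaa1a had 26.4, 48.0 and 132 CPM at day 4 and 26.5, 48.6 and 148 CPM at day 7, against 115, 132 and 140 CPM, and fell by 1.16 ± 0.38 and 1.18 ± 0.38 (adjusted p = 0.0126 and 0.00849). Rats carry a near copy of this gene, Acaa1b, so its counts could be split between them. Cat fell by 1.11 and 0.70, and Hsd17b4 by 1.12 at day 4. Bdh1 had 77.2, 88.9 and 144 CPM at day 4, against 128, 142 and 163 CPM without irradiation, and fell by 0.59 ± 0.12 (adjusted p = 0.000174). At day 7 Bdh1 had 117, 131 and 155 CPM and a log2 value of -0.07 ± 0.12 (adjusted p = 0.623).

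In jejunum more genes passed within series 2 than within series 1. Within series 1, 2 of the 33 fell and 1 rose at day 4 (6.19% and 8.83% of all genes), and 0 passed at day 7 (9.42% and 17.0%). Within series 2, 18 fell and 2 rose at day 4 (18.9% and 24.7%) and 14 fell and 4 rose at day 7 (27.2% and 31.9%). Within series 1 at day 7 the log2 values of Ppara, Cpt1a and Pex11a were 1.02, 0.43 and 0.54, in the same direction as over all 6 libraries. DESeq2, another count test, called 20 lower and 4 higher genes at day 7 (30% and 31.4% of all genes). Without replicate 6 of the irradiated day 7 group 12 of the 33 passed, and over all single libraries left out 12 to 23 passed. The share of mitochondrial counts was 7.19% to 23.5% at day 4 and 3.66% to 8.70% at day 7, against 5.82% to 20.9% in non-irradiated jejunum. The non-irradiated libraries split by series, with shares of 5.82% to 7.25% in series 1 and 12.5% to 20.9% in series 2. For the marker counts that follow, 18.9% of all genes fell and 25.0% rose at day 4, and 27.4% and 31.4% at day 7. Jejunal enterocyte markers (0 of 7 changed at day 4, 5 fell at day 7) summed to 47780 to 188248 CPM at day 4 and 13804 to 71586 CPM at day 7, against 92326 to 107949 CPM without irradiation. Proliferation markers (2 of 4 rose at day 4, 4 of 4 at day 7) summed to 12.0 to 215 and 144 to 416 CPM, against 21.8 to 54.5 CPM. None of these markers was at 0 in a group. Adipocyte markers (2 of 3 tested fell on both days, 1 rose at day 4) summed to 107 to 315 CPM at day 4, with Lep at 0 in that group, and 43.2 to 111 CPM at day 7, against 202 to 342 CPM without irradiation. Smooth muscle markers (3 of 6 rose on both days) summed to at most 36.1 CPM in irradiated and 11.5 CPM in non-irradiated jejunum. Skeletal and cardiac muscle markers (1 of 1 tested rose at day 4, 0 at day 7) summed to 113 to 429 CPM at day 4 and 52.1 to 217 CPM at day 7. Without irradiation these muscle markers summed to 36.3 to 198 CPM, with Myh7 at 0 in that group. Fibroblast markers (0 of 6 changed at day 4, 3 rose at day 7) summed to 1.75 to 7.34 CPM at day 4 and 3.39 to 34.1 CPM at day 7, against 0.174 to 15.0 CPM. Without irradiation these fibroblast sums were 4.11 to 15.0 CPM in series 1 and 0.174 to 0.916 CPM in series 2. Leukocyte markers (3 of 3 tested fell on both days) summed to 2.61 to 8.27 and 1.21 to 5.39 CPM, against 3.49 to 43.1 CPM, with S100a8 at 0 in the non-irradiated group. The part of these markers in the changes was not tested.

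The wider lists were counted in jejunum too, where 18.9% of all genes fell and 25.0% rose at day 4, and 27.4% fell and 31.4% rose at day 7. Of 21 genes tested from the same wider list of mitochondrial oxidation, 8 fell on both days, and 1 rose at day 4 and 3 at day 7. Cpt1b, the muscle form of the entry enzyme, averaged 9.17 ± 4.84 CPM in irradiated jejunum at day 7 and 24.8 ± 12.8 CPM in non-irradiated jejunum (SD, n = 6 each; log2 -1.51). Of 28 peroxisomal genes 11 fell and 0 rose at day 4, and 12 fell and 2 rose at day 7. Of 7 genes of ketone body and butyrate handling 2 fell and 1 rose at day 4, and 1 fell and 4 rose at day 7. The monocarboxylate carrier Slc16a1, which takes up butyrate and ketone bodies, was higher at day 7, at 179 ± 40.4 CPM, against 93.5 ± 41.6 CPM (log2 0.98). Of 21 PPAR receptors, partners and targets 4 fell and 3 rose at day 4, and 7 fell and 4 rose at day 7. Acot1, an acyl-CoA thioesterase, averaged 12.0 ± 6.98 CPM at day 7 and 0.659 ± 0.62 CPM without irradiation (log2 4.18), and Ppard, a related receptor, 104 ± 12.3 CPM and 200 ± 57.8 CPM (log2 -0.91).

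The difference between the tissues was tested directly, as the change after irradiation in jejunum minus that in colon. At day 7, 15 of the 33 genes had a higher change in jejunum and 1 a lower change, where 25.4% and 14.2% of all genes did. The median difference of the 33 was 0.74 and that of all genes 0.18 on the log2 scale. Ppara differed most, by 3.90 ± 0.47 (adjusted p = 9.42e-10), with changes of 1.24 in jejunum and -2.58 in colon. Pdk4 differed by 2.55 ± 0.68 (adjusted p = 0.00219), Ehhadh by 2.33 ± 0.57 (adjusted p = 0.000878) and Pex11a by 2.33 ± 0.22 (adjusted p = 9.41e-13). Acsl5 was the gene with the lower change in jejunum (-1.62 ± 0.30, adjusted p = 1.68e-05). In carnitine entry, under which Crat and the peroxisomal Crot were counted, 4 of 5 genes differed, Cpt1a, Cpt2, Crat and Crot, by 0.78 to 1.08. At day 4, 5 of the 33 had a higher change in jejunum and 3 a lower change, where 13.6% and 8.22% of all genes did. Ppara (2.13 ± 0.46, adjusted p = 0.000473), Pex11a (1.92 ± 0.22), Cpt1a (1.02 ± 0.24), Hadhb (0.88 ± 0.25) and Acads (0.85 ± 0.30) were the higher ones. Acsl5 (-1.49 ± 0.30), Acsl1 (-1.23 ± 0.34) and Bdh1 (-0.87 ± 0.20) were the lower ones.

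**Figure D3:**
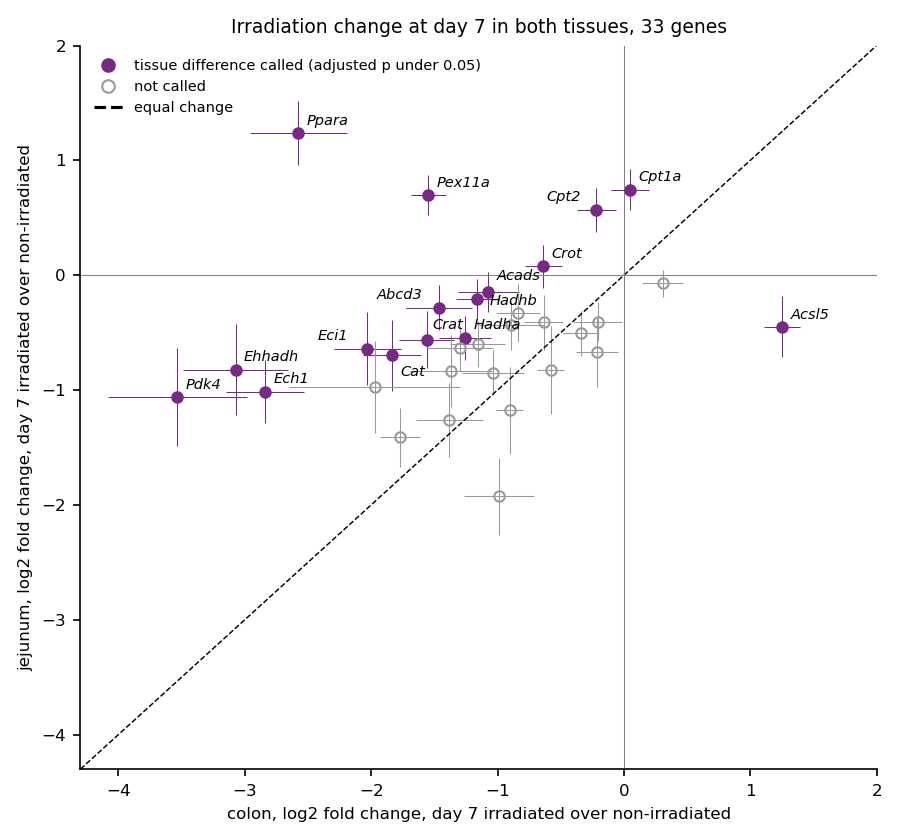
Log2 fold change at day 7 of irradiated untreated over non-irradiated libraries in colon (x axis) and jejunum (y axis), 1 point a gene with its standard error, 6 libraries a group. Filled points are the 16 genes whose difference between the tissues passed the test; Ppara at -2.58 and 1.24 lies farthest from the line of equal change, and Acsl5 is the filled point below it.

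Within series 1 the tissue difference passed for 9 higher genes and 1 lower gene at day 7 (17.7% and 10.9% of all genes), and within series 2 for 6 higher and 3 lower (13.7% and 11.0%). At day 4 the counts were 2 higher and 0 lower within series 1 (7.16% and 4.5%) and 3 higher and 2 lower within series 2 (8.08% and 6.34%). The difference of Ppara at day 7 was 4.16 within series 1 and 3.71 within series 2, and that of Pex11a 2.00 and 2.49, all past the test. The difference of Pdk4 was 0.93 within series 1, which did not pass, and 4.50 within series 2. Of 7 settings in which these differences were refitted, the day 7 call of Ehhadh was lost in 1 and that of Acsl5 in 0. At day 4 the calls of Hadhb and Acsl1 were lost in 2, those of Ppara, Acsl5 and Bdh1 in 1, and those of Pex11a and Cpt1a in 0. The labels do not say whether colon and jejunum libraries come from the same rats.

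Between day 4 and day 7 10 of the 33 genes fell in irradiated untreated colon, and 0 rose, where 18.5% of all genes fell and 18.0% rose. Pdk4 was 6.48-fold lower (adjusted p = 0.00016). Ech1 fell by 1.14 ± 0.29 on the log2 scale, Ehhadh by 1.04 ± 0.40 and Abcd3 by 1.00 ± 0.26. Pex11a was the gene whose libraries lay apart, with 12.1 to 18.6 CPM at day 7 and 24.8 to 36.9 CPM at day 4 (log2 -0.96 ± 0.14), as did those of 4.1% of all genes that were lower. The fall of Ehhadh was lost without any of 8 of the 12 libraries. Within series 1, 18 fell and 1 rose (15.1% and 15.5% of all genes), within series 2, 2 fell and 0 rose (12.4% and 10.1%), and 0 passed once the mitochondrial share was a covariate, where 4.32% of all genes did. The median log2 value of the 33 was -0.65 within series 1 and 0.05 within series 2. In irradiated untreated jejunum 4 rose and 1 fell, where 20.3% and 20.7% of all genes did. Ppara rose by 0.93 ± 0.28 (adjusted p = 0.00814), Acsl1 by 0.89 ± 0.30, Cpt2 by 0.58 ± 0.19 and Bdh1 by 0.52 ± 0.12, and Pex11a fell by 0.60 ± 0.17. Without replicate 4 of the day 7 group the call of Cpt2 was lost (0.45, adjusted p = 0.0597). Within series 1, 0 passed (0.432% of all genes rose and 0.895% fell), and within series 2, 2 rose and 0 fell (22.8% and 21.8%).

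Rats given the injected vehicle, a separate set of libraries, were compared between the days in the same way. In jejunum Bdh1 had more at day 7, with 128, 139 and 155 CPM, against 73.5, 91.0 and 138 CPM at day 4 (log2 0.53 ± 0.13, adjusted p = 0.00181). Pex11a fell by 0.69 ± 0.23 (adjusted p = 0.016) and Etfb by 0.71 ± 0.23 (adjusted p = 0.0154). These were 1 rise and 2 falls among the 33, where 25.5% of all genes rose and 25.2% fell. The mitochondrial share was 3.62% to 9.95% at day 7 and 7.78% to 31.0% at day 4 in these jejunum libraries, and with it as a covariate 0 of the 33 passed (21.3% of all genes did). Jejunal enterocyte markers (4 of 7 fell) summed to 11460 to 56667 CPM at day 7 and 31559 to 190764 CPM at day 4, and proliferation markers (4 of 4 rose) to 189 to 383 and 40.5 to 194 CPM. The part of these markers was not tested. In colon 0 of the 33 passed with edgeR, where 16.0% of all genes rose and 11.4% fell. There 2 of the 33 had an unadjusted p under 0.05, Etfa and Pex11a, and DESeq2 called 2 lower genes (14.6% of all genes fell).

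The comparisons of compound Kushen powder and injection with their vehicles ask what each preparation changes in irradiated epithelium. In colon at day 4, powder and water differed in 3 of the 33 genes, with 2 higher and 1 lower, where 4.89% of all genes were higher and 6.9% lower. Cpt1a had 184, 242 and 270 CPM with powder, against 230, 324 and 465 CPM with water, and fell by 0.61 ± 0.15 on the log2 scale (adjusted p = 0.00927). Decr1 had 34.4, 55.1 and 60.4 CPM with powder, against 25.8, 35.6 and 47.3 CPM with water, and rose by 0.51 ± 0.16 (adjusted p = 0.028). Acaa1a had 29.2, 36.3 and 43.4 CPM with powder, against 24.0, 28.0 and 31.4 CPM with water, and rose by 0.37 ± 0.11 (adjusted p = 0.0238). The libraries of the groups overlapped for each of the 3 genes. Within series 1 and within series 2 none of the 33 passed (0.0225% and 0.186% of all genes did), and the log2 values were -0.20 and -1.02 for Cpt1a, 0.56 and 0.42 for Decr1 and 0.39 and 0.31 for Acaa1a. Leaving out 1 library at a time gave 1 to 5 called genes, with Cpt1a among them each time. Cpt1a alone passed without replicate 2 or 4 of the powder group or replicate 1, 5 or 6 of the water group, Decr1 was also lost without replicate 3 of the powder group, and 5 genes passed without replicate 2 of the water group. Colonocyte markers (1 of 5 fell) summed to 5135 to 14672 CPM with powder, against 1210 to 10745 CPM with water. The mitochondrial share was 6.65% to 11.7% with powder, against 5.63% to 11.5% with water, and with this share as a covariate Cpt1a (log2 -0.49, adjusted p = 0.0481) and Acaa1a (0.37, adjusted p = 0.0461) passed and Decr1 (0.44, adjusted p = 0.0774) did not (4.89% of all genes passed). The part of the colonocyte markers in these changes was not tested.

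**Figure D4:**
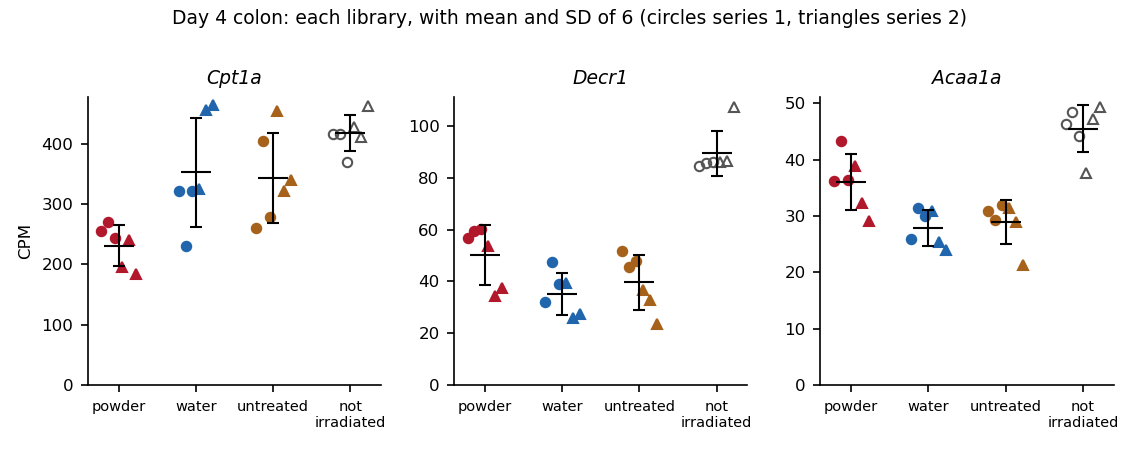
CPM of Cpt1a, Decr1 and Acaa1a in each day 4 colon library of irradiated rats given powder, water or nothing and of non-irradiated rats, with the mean and SD of 6 libraries. The mean of Cpt1a is lowest with powder, at 231 CPM, while the means of Decr1 and Acaa1a with powder lie between those of the water and the non-irradiated groups.

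In the other 3 powder comparisons and in all 4 injection comparisons 0 of the 33 genes passed with edgeR, and 0 passed with DESeq2. With edgeR 0.008% of all genes were higher for powder in jejunum on each day, and 0% passed in the other 5 of these 7 comparisons. With DESeq2 the shares of all genes were 0.015% for powder in colon at day 7, 0.128% and 0.008% for powder in jejunum at day 4 and day 7, 0.0739% and 0.0164% for injection in jejunum at day 4 and day 7, and 0% for injection in colon. Of the 33, 0 had an unadjusted p under 0.05 for powder in colon at day 7 and 1 in jejunum on each day. For injection the numbers were 0 in colon at day 4, 2 in colon at day 7, 1 in jejunum at day 4 and 3 in jejunum at day 7. In jejunum at day 7 Cpt1a had 301, 342 and 369 CPM with powder, against 377, 481 and 510 CPM with water. The libraries lay apart (0.28% of all genes were lower without overlap), and the log2 value was -0.45 ± 0.18 with an interval of -0.79 to -0.10 (unadjusted p = 0.0161), which did not pass after adjustment. Pdk4 had 40.1, 64.0 and 71.7 CPM with injection in jejunum at day 7, against 33.1, 116 and 227 CPM with its vehicle (log2 -1.04 ± 0.34, interval -1.71 to -0.37, unadjusted p = 0.00559, adjusted p = 0.998). For the injection in colon the median log2 value of the 33 was 0.22 at day 4 and -0.31 at day 7, with none past the test, and that of all genes was 0.02 and -0.01. Colonocyte markers (0 of 5 changed on either day) summed to a median of 10110 CPM with injection and 5071 CPM with its vehicle at day 4, and 1274 CPM with injection and 2410 CPM with its vehicle at day 7, and their part in these medians was not tested. Water itself, set against irradiated rats given nothing, changed 0 of the 33 genes in any of 4 comparisons with edgeR or DESeq2, and 0, 4, 1 and 0 had an unadjusted p under 0.05 (colon day 4, colon day 7, jejunum day 4, jejunum day 7). With edgeR 0%, 0.00752%, 0% and 0.008% of all genes passed in these comparisons, and with DESeq2 0%, 0.015%, 0% and 0.04%.

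**Figure D5:**
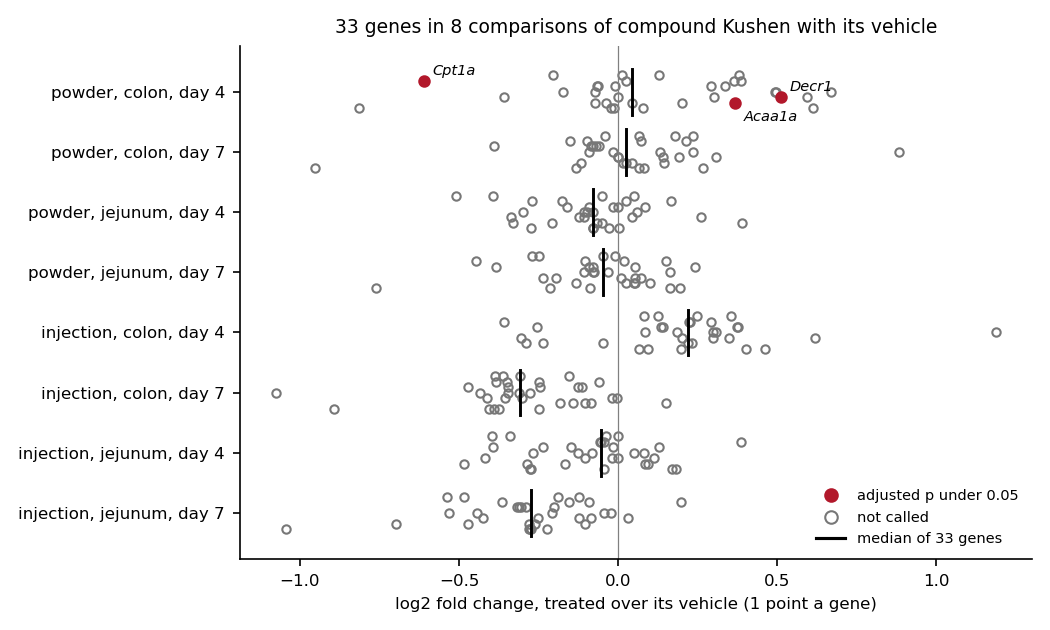
Log2 fold changes of the 33 genes (1 point a gene) for powder over water and for injection over injected vehicle in each tissue and on each day, 6 libraries a group, with the median as a bar. Only Cpt1a (-0.61), Decr1 (0.51) and Acaa1a (0.37) in colon at day 4 passed the test, and the medians lie between -0.31 and 0.22.

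Across the 10 irradiated groups of each tissue, the levels put these treatments beside the irradiation change, as a description, since the injected groups have no non-irradiated libraries of their series. Group means of Ppara in irradiated colon ran from 1.55 CPM (water, day 7) to 4.55 CPM (powder, day 4), and non-irradiated colon averaged 12.3 ± 1.67 CPM (SD, n = 6). The highest irradiated colon library, at 6.98 CPM, was below the lowest non-irradiated library, at 9.20 CPM. In irradiated jejunum the Ppara means ran from 9.31 to 22.2 CPM, and non-irradiated jejunum averaged 9.62 ± 3.16 CPM. Ehhadh means in irradiated colon ran from 13.3 to 42.7 CPM, and non-irradiated colon averaged 159 ± 45.5 CPM. Pex11a means ran from 41.8 to 93.7 CPM in irradiated jejunum, all above the 32.7 ± 3.54 CPM of non-irradiated jejunum. Acsl5 means ran from 154 to 218 CPM in irradiated colon, all above the 75.1 ± 4.92 CPM of non-irradiated colon. Cpt1a means in irradiated jejunum ran from 338 CPM (powder, day 7) to 498 CPM (injection, day 4), above the 243 ± 41.9 CPM of non-irradiated jejunum.

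Without irradiation the tissues already differed. In jejunum 17 of the 33 genes were higher than in colon and 4 lower, where 29.4% and 41.1% of all genes were, and the median was 0.65 log2 for the 33 and -0.22 for all genes. Libraries lay apart for 18 higher and 4 lower genes (24.7% and 29.3% of all genes). Acsl5 had 1954, 2734 and 3848 CPM in jejunum, against 69.2, 74.6 and 83.7 CPM in colon, and was 38.3-fold higher (log2 5.26 ± 0.26, adjusted p = 1.31e-28). Acsl1 (log2 2.50 ± 0.27), the peroxisomal Hsd17b4 (2.49 ± 0.32) and Etfb (1.67 ± 0.34) followed. Acads was lower in jejunum, with 104, 130 and 184 CPM, against 282, 294 and 328 CPM in colon (log2 -1.24 ± 0.23, adjusted p = 3.56e-06). Abcd3 (-0.97 ± 0.26), Cpt1a (-0.94 ± 0.18) and Pex11a (-0.65 ± 0.17) were the other lower genes. Ppara, Ppargc1a and Bdh1 did not pass, with log2 values of -0.50, -0.85 and 0.01. Of 7 other genes of ketone body and butyrate handling 1 was higher and 5 were lower in jejunum. Oxct1 was the higher one, at 148 ± 8.30 CPM in jejunum and 23.5 ± 5.21 CPM in colon, and Aacs, which returns acetoacetate to lipid synthesis, was lower at 17.7 ± 4.09 CPM, against 78.3 ± 12.2 CPM.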

How the data were processed

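RNA sequencing (paired ends of 150 bp) of 132 libraries in 22 groups of 6 was used. The authors deposited raw counts per gene symbol in 2 tables, whose 168 columns hold 36 libraries in both with identical values; each was used once. STAR 2.7.10a and the build mRatBN7.2 are named per the submitters' processing notes; the counting program, annotation release and strand setting were not given in the sources used here, so reads of overlapping or near-identical genes could be shared.

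Counts were tested with edgeR 4.0.16 (R 4.3.3, limma 3.58.1) by the quasi-likelihood test, with TMM factors, filterByExpr and Benjamini-Hochberg adjustment over all genes tested. One fit per tissue held 42 libraries with library series as a term, another the 24 injected libraries, and a fit of 84 libraries gave the tissue differences and the comparison of non-irradiated tissues. Groups came from the sample labels, and library series from the first digit of the library names. Standard errors are the log2 fold change divided by the root of F. Totals of 17196039 to 19800746 counts per library limit the precision of the weakest genes.

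The members and lists were chosen with earlier results of these data known. Genes given in full were the 4 called members with the largest rise and the 4 with the largest fall in a comparison, at a mean of 5 CPM or more, plus Cpt1a, Ppara, Ppargc1a, Pdk4 and Bdh1 after irradiation; of each pathway list, up to 2 genes with the smallest p in each direction were eligible. Other members are given to account for each role. Alternatives were DESeq2 1.42.0, RLE factors, no low count filter, the mitochondrial share as covariate, a replicate block, each library series alone and, chosen after seeing the data, leaving out 1 library at a time. The fits were also run on simulated counts with 200 changed genes and no difference between series. That run does not cover the wider changes and the series differences seen here. One gene of the wider lists is counted but not reported here by name.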

Additional observations from a re-analysis of the deposited data

Results flagged for a closer look

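Single libraries stood far from the other 5 of their group in 8 of 93 pairs of gene and group tested, where chance flags about 1 in 20. In irradiated untreated colon these were Acsl5 in replicate 6 at day 4 (277 CPM) and Abcd3 in replicate 3 at day 7 (384 CPM). In irradiated untreated jejunum replicate 3 at day 4 was highest for Bdh1 (144 CPM), Hadhb (693 CPM) and Cpt2 (151 CPM), and replicate 1 at day 7 for Acaa1a (148 CPM). Without irradiation they were Ehhadh in replicate 6 of colon (248 CPM) and Hadhb in replicate 5 of jejunum (651 CPM).

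The change after irradiation differed between jejunum and colon, by the interaction test with an adjusted p under 0.05, for 8 genes at day 4 and 16 at day 7. On the log2 scale, as jejunum minus colon, the day 4 differences were 1.02 for Cpt1a, -1.23 for Acsl1, -1.49 for Acsl5, 0.85 for Acads, 0.88 for Hadhb, 1.92 for Pex11a, 2.13 for Ppara and -0.87 for Bdh1. In carnitine entry and activation the day 7 differences were 0.78 for Cpt1a, 0.87 for Cpt2, 1.08 for Crat, 0.80 for Crot and -1.62 for Acsl5. In the mitochondrial and unsaturated steps they were 1.01 for Acads, 0.79 for Hadha, 1.03 for Hadhb, 1.47 for Eci1 and 1.91 for Ech1. In peroxisomes they were 2.33 for Ehhadh, 1.26 for Abcd3, 2.33 for Pex11a and 1.22 for Cat, and among the regulators 3.90 for Ppara and 2.55 for Pdk4.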

How the results depend on the processing

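With DESeq2 and with RLE factors 22 of 23 counts of called members stayed within 1.5 times the count reported, and without the low count filter all 23 did. The exception was the injected vehicle in colon between the days, with 2 called by DESeq2, 1 with RLE factors and 0 in the report. All 71 values of genes given in full kept direction and call with DESeq2 and RLE factors. They held less well in other settings. Within series 1, 30 of these values lost their call and 1 changed direction, and within series 2, 18 and 1 did. With the mitochondrial share as a covariate 19 lost their call and 1 changed direction. Among refits with 1 library left out, 42 values lost their call, 1 changed direction and 530 stayed the same. Scaling moved the median of all genes by over 0.1 log2 only in the tissue difference at day 7, by -0.12 with DESeq2, -0.12 with RLE factors and -0.15 without the filter. Within series 1, called members numbered 9 in colon at day 4, 3 and 0 in jejunum at day 4 and day 7, 2 and 10 for the tissue difference, 19 and 0 between the days in colon and jejunum, and 0 for powder in colon at day 4. Within series 2 they numbered 5 and 9 for the tissue difference, 2 and 2 between the days, and 0 for powder. With the mitochondrial share they numbered 14 and 4 in colon at day 4 and day 7, 0 and 2 between the days in colon and jejunum, and 0 for the injected vehicle in jejunum. Leaving out 1 library at a time gave 22 to 25 and 27 to 28 in colon, 16 to 24 and 12 to 23 in jejunum, 7 to 14 and 4 to 7 between the days, and 1 to 5 for powder. The value of Cpt1a in colon at day 7 (0.05, not called) was -0.64 with the mitochondrial share and -0.11 within series 2, and -0.020 to 0.10 over single libraries left out. That of Bdh1 (0.31, not called) was -0.021 within series 1. The cause of these moves was not tested, and the series hold 3 libraries a group.

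Whether replicate numbers pair the samples could not be decided, since the labels name no rats and the correlations varied widely. Outside the injected groups, r between deviations of same-numbered libraries ran from -0.73 to 0.82 in colon and -0.77 to 0.86 in jejunum. These libraries correlated above 0.1 in 55 of 126 pairs in colon (median r 0.04) and 49 of 126 in jejunum (0.02). Same-numbered libraries of the injected groups did so in 11 of 36 pairs in each tissue. Colon and jejunum libraries of the same library number did so in 34 of 66 pairs (median r 0.11), and the tissue difference treats them as independent. With a replicate block the counts stayed within 1.5 times (23 and 28 in colon, 21 and 18 in jejunum), and Pdk4 in jejunum at day 7 lost its call (adjusted p = 0.0509 with edgeR's quasi-likelihood test).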
